A study of Mus musculus with 12 samples.

Results

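The genes described here encode the secreted Wnt ligands, their receptors and co-receptors, the secreted proteins that block or boost them, and the main intracellular carriers and targets of the signal. They were chosen by gene symbol, with earlier results of these data known, and 54 of the 35976 symbols in the count tables matched. The list held 19 Wnt ligands, 10 Frizzled receptors, the 2 co-receptors *Lrp5* and *Lrp6*, 5 Dickkopf genes, 4 secreted Frizzled-related protein genes, 4 R-spondins, 5 R-spondin receptors and ubiquitin ligases, and 5 genes of the β-catenin, Axin and TCF level. RNA came from the testes of E15.5 embryos of outbred Swiss (RjOrl) mice, and each of the 12 libraries was made from a pool of the testes of 3 embryos, with 3 libraries in each of 4 groups. F1 thia embryos were exposed in the womb to thiacloprid (*thia*), a neonicotinoid insecticide that was given by gavage in oil at 6 mg/kg/day to the pregnant mother from E6.5 to E15.5, and the mothers of F1 control embryos received the oil alone. F3 thia embryos were reached through the males, which were mated in each generation with unrelated and untreated females, and were themselves not exposed. F3 control embryos descended in the same way from mothers given oil. As each library is a pool of whole organs, fewer cells of one type and less RNA per cell cannot be told apart.

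Wnt ligands are secreted lipid-modified proteins that bind Frizzled receptors together with LRP5 or LRP6, and in the canonical branch the bound receptor stops the Axin complex from degrading β-catenin, which then acts with TCF/LEF factors on target genes. Dickkopf proteins hold LRP5/6 away from the ligand, secreted Frizzled-related proteins (sFRPs) bind the ligands themselves, and R-spondins act through LGR receptors to keep the ubiquitin ligases RNF43 and ZNRF3 from removing Frizzled. In the fetal gonad, RSPO1 and WNT4 drive canonical signalling in the ovary, whereas in the testis this signal is held down in the supporting cells, and WNT5A is made by the interstitial cells.

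The libraries held 25081647 to 68996146 counts on genes, and 1 CPM (a count scaled to library size, with TMM over the 12 libraries) stood for 26.98 to 66.79 counts. The tissue was testis by its markers, since the summed level of 10 Sertoli cell genes was 1066 to 3014 CPM and that of 4 ovary genes (*Foxl2*, *Fst*, *Irx3* and *Bmp2*) was 14.4 to 37.9 CPM. Among F1 libraries, F1 thia replicate 2 stood apart in 12 skeletal muscle genes, at 749 CPM against 34.4 to 107.0 CPM in the other 5. Among F3 libraries, F3 thia replicate 2 stood apart, with the lowest germ cell level of all libraries (499 CPM over 10 genes, against 690.3 to 1240 CPM in the other F3 libraries) and the highest blood level (82281 CPM over 7 genes, against 45106 to 66641 CPM). F3 control replicate 3 had the next highest skeletal muscle level, 342 CPM, and the lowest germ cell level of its group, 776 CPM. Results for F3 are therefore also given without these libraries.

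Wnt ligand RNA in the E15.5 testis came mostly from *Wnt6* and *Wnt5a*. Per kb of exon, the scale used here to compare genes, *Wnt6* stood at 74.7 CPM and *Wnt5a* at 51.2 CPM in F1 control. They were followed by *Wnt4* at 14.5 CPM, *Wnt5b* at 14.2 CPM and *Wnt2b* at 9.69 CPM. Exon lengths came from GENCODE M21 whereas the counts were on refGene genes, so close ranks between genes can depend on the annotation. *Wnt6* made up 39.1 to 47.0% of the summed ligand level per kb in F1 control libraries and 29.9 to 34.9% in F3 control libraries, and the share of *Wnt5a* was 25.6 to 34.1% and 28.5 to 29.6%. The *Wnt6* and *Wnt5a* levels per kb did not overlap in F1 control and overlapped in F3 control, and *Wnt4* and *Wnt5b* overlapped in F1 control. *Wnt5a* was found at 372, 318 and 389 CPM in F1 control, 339, 302 and 310.3 CPM in F1 thia, 329.8, 354 and 291 CPM in F3 control, and 297, 385 and 309 CPM in F3 thia. These values overlapped in both generations, with a log2 fold change of -0.17 (SE 0.10) in F1 and 0.02 (SE 0.12) in F3. At the lower end, *Wnt1*, *Wnt8a*, *Wnt9b* and *Dkk4* were left out by the low-count filter in all 4 comparisons. The highest count of these 4 genes in any library was 8 for *Wnt1*, 14 for *Wnt8a*, 15 for *Dkk4* and 53 for *Wnt9b*. The 53 counts of *Wnt9b*, a ligand of the mesonephric duct, lay in F1 thia replicate 1, and the other libraries held 0 to 15.

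Among the receptors, *Fzd2*, *Fzd1* and *Fzd7* had the highest levels per kb, at 24.1, 14.5 and 13.0 CPM in F1 control, and *Fzd2* alone made up 31.3 to 39.2% of the summed Frizzled level per kb over the 12 libraries. The co-receptors *Lrp5* and *Lrp6* stood at 11.6 and 9.28 CPM per kb. Of the antagonists, *Sfrp1* was the most abundant per kb, at 80.0 CPM in F1 control, a level whose libraries overlapped with those of *Wnt6*. *Sfrp2* followed at 14.8 CPM and *Sfrp4* at 1.36 CPM. *Dkk3*, the divergent family member that does not bind LRP5/6, stood at 11.2 CPM, above *Dkk1* at 4.41 CPM and *Dkkl1* at 1.72 CPM. *Rspo1* (11.9 CPM) led the R-spondins, before *Rspo4* (5.85 CPM) and *Rspo3* (2.19 CPM). *Lgr4* was far above the other R-spondin receptors, at 30.5 CPM per kb against 1.74 CPM for the stem cell marker *Lgr5* and 0.290 CPM for *Lgr6*, and *Znrf3* stood at 2.87 CPM against 0.641 CPM for *Rnf43*. *Ctnnb1*, which encodes β-catenin, had 295 CPM per kb, the highest level of the 54 genes in all 4 groups. It was followed in its class by *Tcf7* at 32.9 CPM and *Axin1* at 21.2 CPM, while the canonical target *Axin2* stood at 6.64 CPM.

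**Figure D1:**
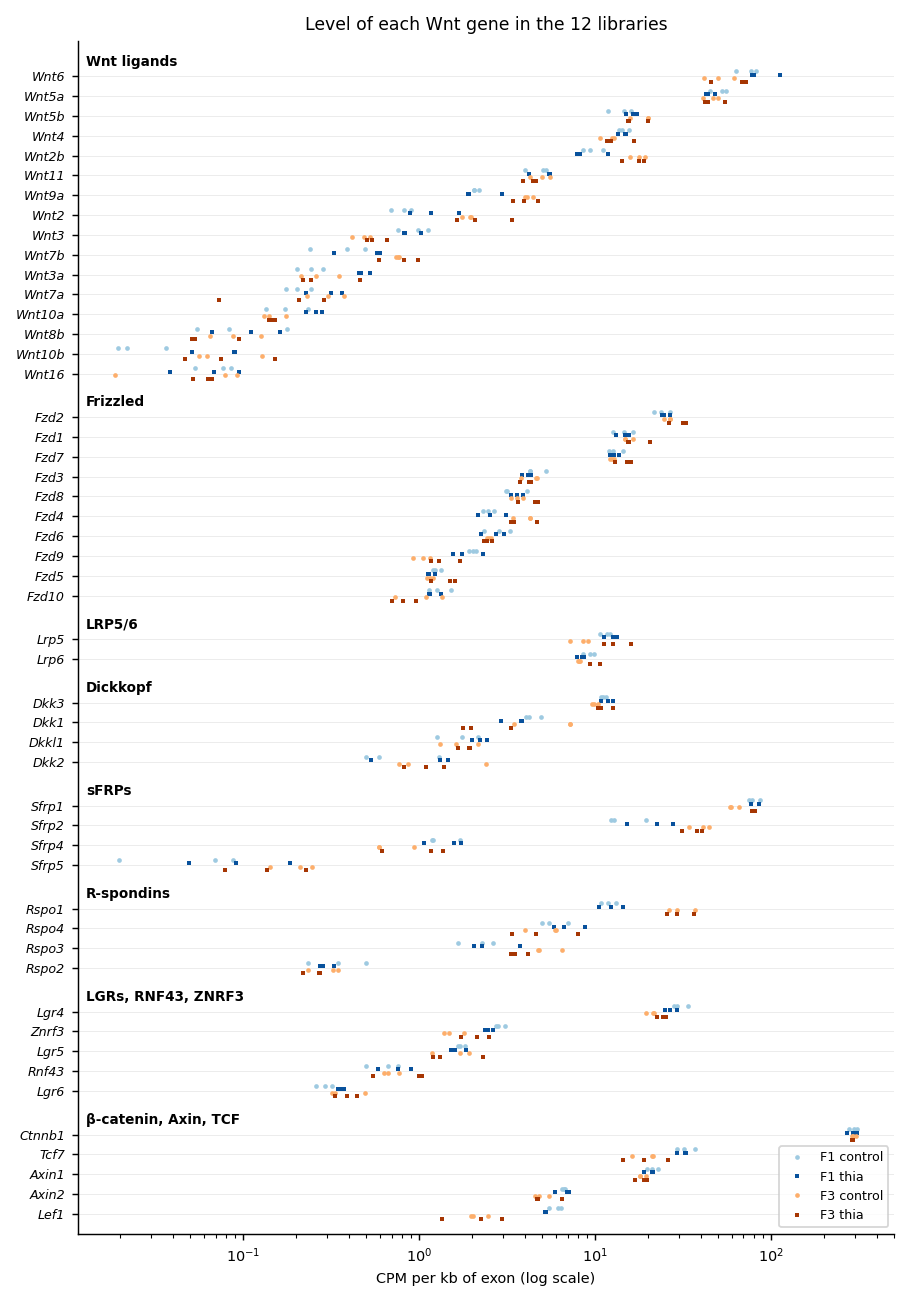
Level of the 50 Wnt genes that passed the low-count filter, as CPM per kb of exon on a log axis, with 1 point per library, pale circles for control and dark squares for *thia* (blue F1, orange and brown F3). *Ctnnb1* is highest in every library, *Wnt6* and *Sfrp1* hold the highest points of the secreted proteins, and F3 points of *Rspo1*, *Sfrp2* and *Wnt9a* lie to the right of the F1 control points whereas those of *Lef1* lie to the left.

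The first comparison asked what direct exposure in the womb did, with F1 thia against F1 control. None of the 48 Wnt genes tested passed the quasi-likelihood test of edgeR at an adjusted p of 0.15, the threshold of the study for F1, where 0.0105% of the 19137 genes tested did. At an unadjusted p under 0.05 there were 3 Wnt genes, against 8.76% of all genes, and all 3 were higher in F1 thia, against 4.63% of all genes in that direction. With the Wald test of DESeq2 the count of Wnt genes was 0 of 47, against 1.13% of all genes. The median log2 fold change over the 48 genes was 0.05, and over all genes 0.01.

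*Wnt3a*, a canonical ligand, had the lowest p of the Wnt genes in F1. Its level was 0.559, 0.787 and 0.667 CPM in F1 control and 1.29, 1.26 and 1.45 CPM in F1 thia, from 18 to 48 counts and 51 to 95 counts per library. Every F1 thia library lay above every F1 control library, and the log2 fold change was 1.00 (SE 0.25), with an adjusted p of 0.446 in edgeR and 0.248 in DESeq2. In F3 the same gene was at 0.589, 0.970 and 0.717 CPM in control and 1.27, 0.604 and 0.674 CPM in *thia*, and the groups overlapped. *Wnt2*, a ligand of mesenchyme and endothelium, was at 1.84, 2.03 and 1.56 CPM in F1 control and 3.80, 2.01 and 2.63 CPM in F1 thia. These groups overlapped, through F1 thia replicate 2, at a log2 fold change of 0.65 (SE 0.26, adjusted p = 0.543 in edgeR). *Sfrp2*, which binds and sequesters Wnt proteins, was at 38.9, 24.7 and 25.6 CPM in F1 control and 45.1, 55.5 and 30.6 CPM in F1 thia. The ranges overlapped here too, at a log2 fold change of 0.57 (SE 0.22, adjusted p = 0.532 in edgeR). An opposite-strand gene overlaps exons of *Sfrp2*, and whether the counting used strand is not given in the sources used here, so reads of the pair cannot be told apart.

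The LRP5/6 antagonist *Dkk1* was at 10.3, 9.78 and 12 CPM in F1 control and 9.21, 9.32 and 7.06 CPM in F1 thia. All 3 F1 thia libraries were below the controls, at a log2 fold change of -0.31 (SE 0.15, adjusted p = 0.585 in edgeR). Without F1 thia replicate 2, the library with skeletal muscle RNA, no Wnt gene was called either, and the log2 fold changes were 1.04 for *Wnt3a*, 0.83 for *Wnt2*, 0.36 for *Sfrp2* and -0.38 for *Dkk1*. Groups without overlap were found for 5 of the 48 Wnt genes in F1, against 15% of all genes. Apart from *Wnt3a* and *Dkk1* these were *Lgr6*, which was higher in F1 thia, and *Znrf3* and *Lef1*, which were lower. *Sfrp1* was at 340.5, 328 and 380.3 CPM in F1 control and 376, 336 and 338 CPM in F1 thia, and *Rspo3*, an R-spondin of vessels and mesenchyme, at 7.05, 5.12 and 8.08 CPM and 11.6, 6.32 and 7.0 CPM. Both overlapped between the groups. By class, 11 of the 15 ligands tested had a positive log2 fold change (median 0.13), as had 5 of 10 Frizzled genes (median -0.03) and 2 of 5 genes of the β-catenin, Axin and TCF level (median -0.03). In F1 the summed macrophage, mesonephric and ovary marker lists were higher in all 3 *thia* libraries than in the controls. The summed adrenal list was lower (7 genes, 56.6 to 70.5 CPM in control and 44.5 to 52.0 CPM in *thia*). Of the adrenal genes, *Cyp11b1*, *Cyp21a1* and *Th* were lower without overlap, *Pnmt* and *Dbh* were higher without overlap, and *Mc2r* and *Nr0b1* overlapped. Of the ovary genes, *Foxl2* and *Bmp2* were higher without overlap, and *Fst* and *Irx3* overlapped. The part of these lists in the F1 values was not tested.

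The second comparison asked what was seen in embryos that descended from exposed mice without having been exposed, with F3 thia against F3 control. At an adjusted p of 0.1, the threshold of the study for F3, 0 of the 49 Wnt genes tested were called by edgeR and 0.0% of the 18539 genes tested, and the lowest adjusted p among the Wnt genes was 0.105. At an unadjusted p under 0.05 there were 8 Wnt genes, or 16.3%, against 21.1% of all genes. Of the 8, 6 were higher in F3 thia, against 11.0% of all genes, and 2 were lower, against 10.0%. The Wald test of DESeq2 called 6 of 42 Wnt genes at 0.1, or 14.3%, against 14.9% of all genes. These shares lie near those of all genes, so the values that follow describe single genes and not the list.

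The 8 genes held both co-receptors (*Lrp5* and *Lrp6*), the receptors *Fzd7* and *Lgr4*, the ubiquitin ligase *Znrf3* and the ligand trap *Sfrp1*, which were higher in F3 thia, and the secreted *Dkk1* and *Rspo3*, which were lower. At an adjusted p of 0.15 edgeR called 5 of them (*Sfrp1*, *Lrp5*, *Dkk1*, *Lrp6* and *Rspo3*), against 9.85% of all genes. DESeq2 at 0.1 called the same 5 and *Znrf3*.

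**Figure D2:**
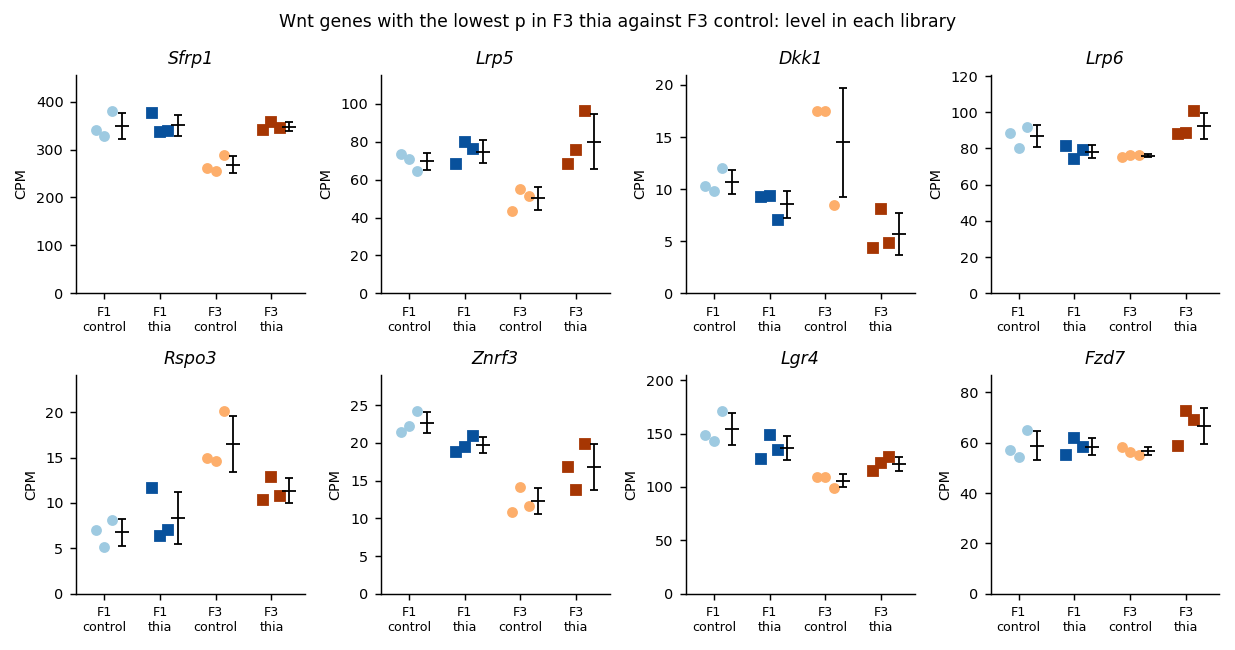
CPM in each library in the 4 groups for the 8 Wnt genes whose unadjusted p was under 0.05 between F3 thia and F3 control, with the mean and SD of the 3 libraries as a black bar beside each group. All 3 F3 thia points lie above the F3 control points for *Sfrp1*, *Lrp5*, *Lrp6*, *Lgr4* and *Fzd7* and below them for *Dkk1* and *Rspo3*, whereas those of *Znrf3* overlap.

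*Lrp5* (chromosome 19, 3584828 to 3686564 in mm10) was at 43.6, 55.2 and 51.4 CPM in F3 control and 68.1, 75.7 and 96.2 CPM in F3 thia. The groups did not overlap, and the log2 fold change was 0.68 (SE 0.15, adjusted p = 0.105 in edgeR and 0.00159 in DESeq2). Its F1 values, 73.7, 70.7 and 64.6 CPM in control and 68.1, 79.9 and 76.2 CPM in *thia*, lay above every F3 control library. *Lrp6* (chromosome 6, 134446476 to 134566965) was at 75.2, 76.5 and 76.6 CPM in F3 control and 87.9, 88.4 and 100.7 CPM in F3 thia. The control libraries were almost equal and the *thia* libraries all higher, by a log2 fold change of 0.28 (SE 0.08, adjusted p = 0.132 in edgeR and 0.0523 in DESeq2). Its F1 values overlapped between the groups, with 88.3, 80.3 and 92.1 CPM in control and 81.5, 74.2 and 79.3 CPM in *thia*.

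*Sfrp1* (chromosome 8, 23411502 to 23449632) had the lowest p of the Wnt genes in F3. It was at 261.5, 255.5 and 289 CPM in F3 control and 340.5, 358 and 344.5 CPM in F3 thia. The F3 thia libraries reached the level of the F1 groups and lay above every F3 control library, at a log2 fold change of 0.37 (SE 0.08, adjusted p = 0.105 in edgeR and 0.00335 in DESeq2). On the per kb scale, *Sfrp1* made up 58.8 to 62.4% of the summed sFRP level in F3 control and 65.2 to 70.3% in F3 thia. The other sFRPs overlapped between the F3 groups, and *Sfrp2* was at 82.1, 68.3 and 89.6 CPM in control and 62.6, 76.7 and 81.7 CPM in *thia*.

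*Dkk1* (chromosome 19, 30545863 to 30549665) had the largest log2 fold change of the Wnt genes tested in F3. Its level was 17.5, 17.5 and 8.45 CPM in F3 control and 4.32, 8.05 and 4.81 CPM in F3 thia, from 318 to 648 and 190 to 321 counts per library. F3 control replicate 3 and F3 thia replicate 2 nearly met, at 8.45 and 8.05 CPM, while the other libraries lay far apart. The log2 fold change was -1.34 (SE 0.34), or 0.395 of the control level, with an adjusted p of 0.117 in edgeR and 0.00124 in DESeq2. The other Dickkopf genes had adjusted p-values of 0.325 to 0.803 in edgeR, and *Dkk3* was at 34.9, 33.3 and 32.5 CPM in F3 control and 35.1, 36.5 and 42.7 CPM in F3 thia.

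*Dkk1* is itself a known target of β-catenin and TCF/LEF factors, so the bases upstream of its start site were searched for the TCF core CTTTGA on both strands (TCAAAG on the other). RefSeq promoter sequences for GRCm38.p6 were matched by symbol for 35 of the 54 genes (44 start sites), and the 250 bases before the start were read. The core was found in 5 of these 44 windows, or 11.4%, against 13.8% of the 32851 windows of all genes. The genes with a match were *Dkk1*, *Lef1*, *Fzd1*, *Wnt5b* and *Wnt11*. *Dkk1* (window chr19:30549497-30549746, minus strand) held 2 matches, which begin 174 and 117 bases before its RefSeq start. GENCODE M21, from which the gene's coordinates above were taken, starts the gene further upstream, at 30549665, so that 169 of the 250 bases and the match nearer to the RefSeq start lie inside the gene in that annotation. Shown here are the first 82 bases of the window, chr19:30549665-30549746, which end with the farther match in capitals. *Lgr4* (chr2:109917397-109917646, plus strand) and *Fzd7* (chr1:59481897-59482146, plus strand) are shown beside it because they are the others of the 8 genes with an entry. Their windows hold no match to the 6 letters searched, and other forms of a TCF site were not searched. GENCODE M21 starts *Fzd7* further downstream, at 59482424, so that the bases directly before that start were not searched.
Dkk1: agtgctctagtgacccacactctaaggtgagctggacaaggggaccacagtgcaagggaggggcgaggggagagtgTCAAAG
Lgr4: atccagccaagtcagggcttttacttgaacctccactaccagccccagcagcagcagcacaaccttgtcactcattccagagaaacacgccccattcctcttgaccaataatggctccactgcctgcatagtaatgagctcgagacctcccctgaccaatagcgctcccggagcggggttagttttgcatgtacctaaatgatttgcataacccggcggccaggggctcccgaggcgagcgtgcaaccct
Fzd7: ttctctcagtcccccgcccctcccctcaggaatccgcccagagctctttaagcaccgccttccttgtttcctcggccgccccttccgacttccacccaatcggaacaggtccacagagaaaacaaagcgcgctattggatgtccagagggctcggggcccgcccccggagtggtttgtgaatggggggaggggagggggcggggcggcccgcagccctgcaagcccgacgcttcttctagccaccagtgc
The *Dkk1* window of 250 bases had a GC content of 60.8% and 6 CpG sites, *Lgr4* 55.6% and 10, and *Fzd7* 65.2% and 17, against a median of 52.4% and 6 over all windows. A match of 6 letters is a description of the sequence and not a measured binding site.

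*Rspo3* (chromosome 10, 29452416 to 29535867) was at 14.9, 14.6 and 20.1 CPM in F3 control and 10.3, 12.9 and 10.8 CPM in F3 thia. The groups did not overlap, at a log2 fold change of -0.55 (SE 0.17, adjusted p = 0.142 in edgeR and 0.0334 in DESeq2). An opposite-strand gene overlaps its exons. The other R-spondins overlapped between the F3 groups, and *Rspo1* was at 67.7, 54.1 and 48.5 CPM in control and 47.2, 67.2 and 54.0 CPM in *thia*. On the receptor side, *Lgr4* (chromosome 2, 109917647 to 110014257) was at 109.4, 109.0 and 98.7 CPM in F3 control and 114.7, 122.7 and 128 CPM in F3 thia. The *thia* libraries were above the controls by a log2 fold change of 0.20 (SE 0.08, adjusted p = 0.191 in edgeR). *Znrf3* (chromosome 11, 5276324 to 5444847), which removes Frizzled from the membrane and is itself a canonical target, was at 10.9, 14.2 and 11.7 CPM in F3 control and 16.8, 13.7 and 19.8 CPM in F3 thia. The groups overlapped through F3 thia replicate 2, at a log2 fold change of 0.45 (SE 0.17, adjusted p = 0.189 in edgeR and 0.0819 in DESeq2).

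Of the Frizzled genes, *Fzd7* (chromosome 1, 59482424 to 59486955) was at 58.4, 56.5 and 55.2 CPM in F3 control and 58.6, 72.5 and 69.0 CPM in F3 thia. The lowest *thia* library and the highest control library were nearly equal, and the log2 fold change was 0.23 (SE 0.09, adjusted p = 0.215 in edgeR). Of the 10 Frizzled genes, 6 had a positive log2 fold change in F3, with a median of 0.19 against 0.00 over all genes, and the most abundant, *Fzd2*, was at 91.0, 97.6 and 97.8 CPM in control and 97.3, 121.4 and 116.7 CPM in *thia*. The 15 ligands tested had a median of -0.03, and none had an unadjusted p under 0.05. *Wnt6*, an epithelial ligand, was at 104, 128 and 86.7 CPM in F3 control and 142, 95.2 and 149 CPM in F3 thia, which overlapped. *Ctnnb1* was at 1056 to 1103 CPM in F3 control and 1046 to 1061 CPM in F3 thia. The 5 genes of its class had log2 fold changes of -0.03 to 0.10, and the canonical targets *Axin2* (20.4, 23.3 and 19.4 CPM against 19.9, 20.1 and 27.7 CPM) and *Lef1* (8.65, 6.95 and 7.12 CPM against 7.88, 4.72 and 10.4 CPM) overlapped between the groups.

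Groups without overlap were found for 9 of the 49 Wnt genes in F3, or 18.4%, against 27.3% of all genes. Of these, 7 were higher in F3 thia, against 13.4% of all genes, namely *Fzd7*, *Fzd9*, *Lrp5*, *Lrp6*, *Dkk3*, *Sfrp1* and *Lgr4*, and 2 were lower, *Dkk1* and *Rspo3*, against 13.9%. With 3 libraries in each group, the smallest p that an exact permutation test of a single gene could give is 0.1.

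Other genes of the pathway were taken from a list of 57, from Wnt secretion and co-receptors to the destruction complex, TCF partners and the planar polarity branch. In F1, 4 of the 57 had an unadjusted p under 0.05, where 8.76% of all genes did. In F3 there were 16 of 57, where 21.1% of all genes passed in either direction. All 16 were higher in F3 thia, a direction in which 11.0% of all genes passed. The list was chosen with earlier results of these data known, so its count is a description and no test of the pathway. The lowest p-values in F3 belonged to the planar polarity gene *Vangl1* (log2 fold change 0.39, SE 0.08), the β-catenin cofactor *Bcl9l* (0.58, SE 0.13) and the WNT5A receptor *Ror2* (0.38, SE 0.10), with adjusted p-values of 0.105, 0.105 and 0.114 in edgeR. The median log2 fold change of the 57 genes was 0.14 in F3 and 0.01 in F1. In F1 the lowest p-values belonged to *Apcdd1* (0.30, SE 0.10), *Frzb* (-1.34, SE 0.47) and *Draxin* (0.73, SE 0.28), with adjusted p-values of 0.518, 0.518 and 0.532 in edgeR. The *Frzb* value rested on F1 control replicate 1. The F1 control mean was 21.5 ± 18.6 CPM (SD, n = 3) against 8.45 ± 2.1 CPM in F1 thia, the groups overlapped, and without that library the log2 fold change was -0.34. Without the low-count filter *Frzb* had an adjusted p of 0.0481 in edgeR.

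The F3 calls depended on the libraries and on the fit. Without F3 thia replicate 2, edgeR called 5 of 50 Wnt genes at 0.1, against 6.82% of all genes. These were *Dkk1* (adjusted p = 0.0685), *Lrp5* (0.0787), *Sfrp1* (0.0953), *Znrf3* (0.0954) and *Rspo3* (0.0993). Without F3 control replicate 3 it called no Wnt gene and 0 of 18846 genes in all. The adjusted p-values of the same 5 Wnt genes were then 0.203 to 0.321. Leaving out F3 control replicate 1 or 2, or F3 thia replicate 1 or 3, called no Wnt gene either, with 0 to 2 genes called in all. In a fit of all 12 libraries, which share one estimate of the spread, edgeR called 5 of 50, against 9.86% of all genes, and these were *Lrp5*, *Dkk1*, *Sfrp1*, *Lrp6* and *Znrf3* (adjusted p = 0.0353 to 0.0820). The log2 fold changes of the 8 genes kept their sign whichever library was left out, with that of *Dkk1* between -1.66 and -1.18 and that of *Lrp5* between 0.52 and 0.77.

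Markers of cell types also differed between the F3 groups. The summed level of 8 fetal Leydig cell genes was 2364 to 3839 CPM in F3 control and 4095 to 7227 CPM in F3 thia, that of 6 endothelial genes was 160.5 to 182.5 CPM and 234 to 283 CPM, and that of 7 adrenal genes was 46.0 to 62.0 CPM and 67.9 to 134 CPM. In these 3 lists the summed levels of the groups did not overlap. Not every member followed its list. The Leydig gene *Hsd3b6* was lower without overlap in F3 thia, and *Cyp11a1*, *Hsd3b1* and *Insl3* overlapped. Of the endothelial genes, *Kdr* and *Emcn* overlapped. Of the adrenal genes, only *Pnmt* was higher without overlap, and all the others overlapped. The Sertoli genes were at 1973 and 2008 CPM in F3 thia replicates 1 and 3 and at 1066 CPM in replicate 2, against 1125 to 1548 CPM in F3 control. Germ cell, blood, interstitial progenitor, peritubular, macrophage, mesonephric, coelomic, ovary and skeletal muscle lists overlapped. The part of cell makeup in the F3 values of the Wnt genes was not tested.

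**Figure D3:**
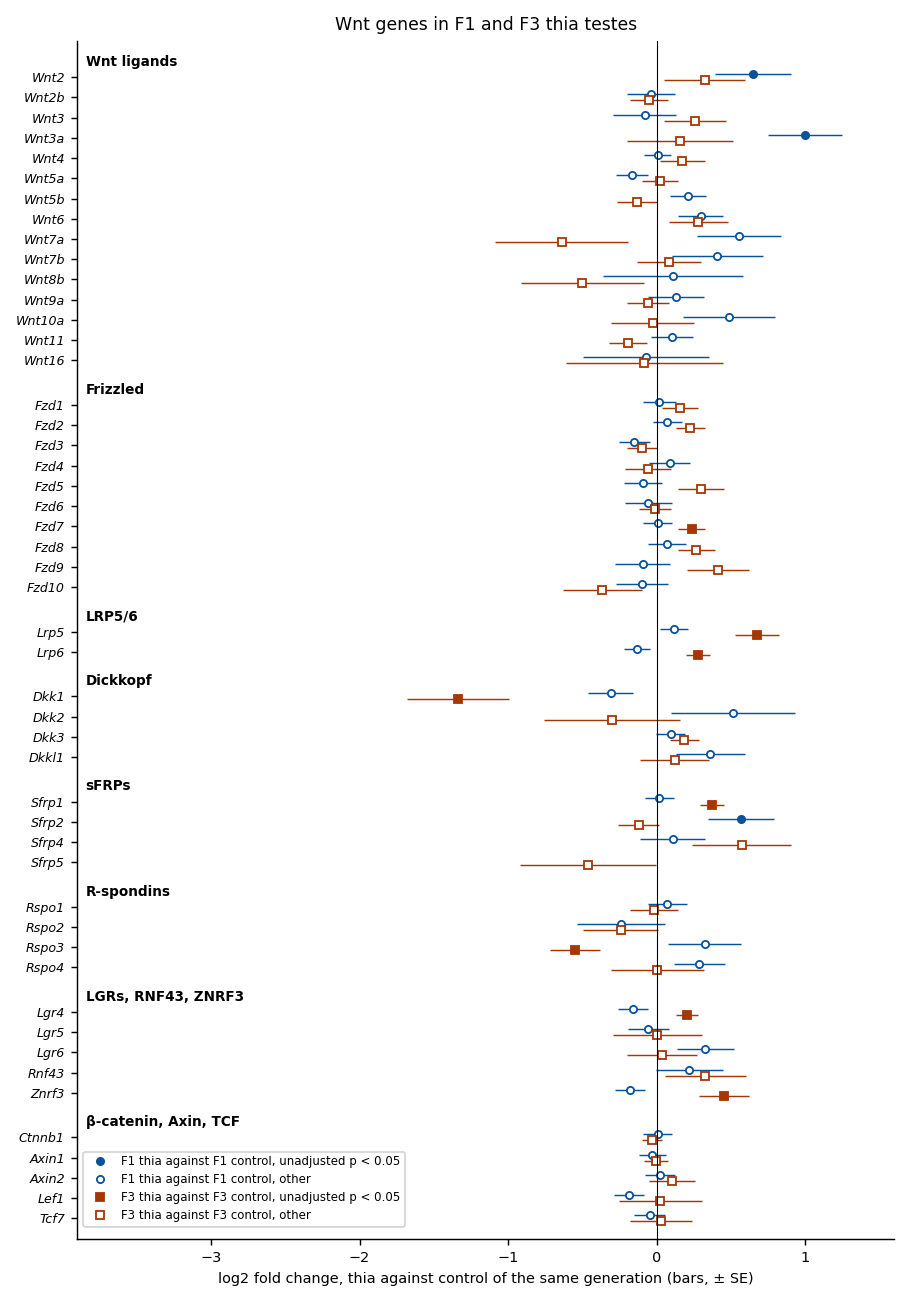
Log2 fold change with its SE for each Wnt gene tested, *thia* against control of the same generation, in F1 (blue circles) and F3 (brown squares), grouped by class, with filled symbols for an unadjusted p under 0.05. The filled F3 symbols lie at 0.20 to 0.68 for 6 genes and at -1.34 and -0.55 for *Dkk1* and *Rspo3*, and the β-catenin, Axin and TCF class lies near 0 in both generations.

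The third comparison asked whether the effect of *thia* differed between the generations, as the F3 effect minus the F1 effect in one fit of the 12 libraries. At an adjusted p of 0.1, edgeR called 0 of 50 Wnt genes and 0.0051% of the 19626 genes tested. At an unadjusted p under 0.05 there were 9 Wnt genes, or 18.0%, against 14.0% of all genes, with 6 more positive in F3 (against 7.93%) and 3 more negative (against 6.1%). DESeq2 at 0.1 called 4 of 39, or 10.3%, against 4.74% of all genes, and these were *Lrp6*, *Znrf3*, *Sfrp1* and *Lrp5*. The difference on the log2 scale was 0.43 (SE 0.11) for *Lrp6*, 0.65 (SE 0.19) for *Znrf3*, 0.58 (SE 0.18) for *Lrp5* and 0.37 (SE 0.12) for *Sfrp1*, with adjusted p-values of 0.248, 0.252, 0.254 and 0.254 in edgeR. For *Lgr4* it was 0.38 (SE 0.13) and for *Fzd5* 0.41 (SE 0.19), with adjusted p-values of 0.255 and 0.350 in edgeR. An opposite-strand gene overlaps exons of *Fzd5*. *Dkk1* at -1.02 (SE 0.39), *Rspo3* at -0.86 (SE 0.33) and *Sfrp2* at -0.67 (SE 0.30) were the negative ones, with adjusted p-values of 0.287, 0.287 and 0.343 in edgeR. *Lrp6*, *Znrf3*, *Lgr4* and *Fzd5* had log2 fold changes below 0 in F1 (-0.13, -0.18, -0.16 and -0.10) and above 0 in F3, whereas *Rspo3* and *Sfrp2* were above 0 in F1 and below 0 in F3. *Wnt5a* differed by 0.21 (SE 0.16). Of the other pathway genes 16 of 57 had an unadjusted p under 0.05, against 14.0% of all genes. They were led by *Trabd2b*, a membrane protease that inactivates Wnt proteins (0.65, SE 0.17), the destruction complex scaffold *Apc* (0.81, SE 0.25) and the antagonist *Draxin* (-1.19, SE 0.37).

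The last comparison set the controls of the generations side by side, F3 control against F1 control, to show how large the Wnt differences were without *thia*. Of 50 Wnt genes tested, 23 were called by edgeR at an adjusted p of 0.1, or 46.0%, against 42.3% of all genes. There were 11 higher in F3 control, against 19.9% of all genes, and 12 lower, against 22.4%. The difference of generation goes with the time at which the animals were bred and taken and the libraries made, so that these cannot be told apart, and the markers differed as well. The blood genes were at 5210 to 15379 CPM in F1 control and 61931 to 66641 CPM in F3 control, the 4 coelomic epithelium genes (*Upk3b*, *Msln*, *Lrrn4* and *Krt19*) at 150.7 to 202.5 CPM and 475 to 576 CPM, the Sertoli genes at 2171 to 2555 CPM and 1125 to 1548 CPM, and the germ cell genes at 1340 to 1860 CPM and 776 to 1240 CPM. The summed peritubular, macrophage, mesonephric and ovary lists were higher and the summed endothelial list lower in F3 control without overlap. Some members went against their list without overlap. The peritubular gene *Myh11* and the mesonephric genes *Pax2* and *Epcam* were lower, and the endothelial gene *Kdr* was higher. The part of these lists in the Wnt differences was not tested.

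The R-spondins and ligand traps were among the largest rises. *Rspo1* (chromosome 4, 124986430 to 125009099), the ovary-promoting R-spondin, rose from 24.1, 21.8 and 19.8 CPM in F1 control to 67.7, 54.1 and 48.5 CPM in F3 control. That is a log2 fold change of 1.37 (SE 0.16, adjusted p = 0.000191 in edgeR). The summed R-spondin level per kb was 19.4 to 20.9 CPM in F1 control and 37.3 to 48.1 CPM in F3 control. *Rspo3* rose from 7.05, 5.12 and 8.08 CPM to 14.9, 14.6 and 20.1 CPM, a log2 fold change of 1.30 (SE 0.24, adjusted p = 0.00172 in edgeR). *Rspo2* and *Rspo4* were not called, at -0.24 (SE 0.28) and -0.14 (SE 0.28). *Sfrp2* rose by 1.43 (SE 0.22, adjusted p = 0.000686 in edgeR), from 24.7 to 38.9 CPM in F1 control to 68.3 to 89.6 CPM in F3 control, while *Sfrp1* fell by 0.38 (log2 fold change -0.38, SE 0.08, adjusted p = 0.00496 in edgeR). *Sfrp2* thereby held 12.7 to 19.7% of the sFRP level per kb in F1 control and 36.4 to 40.3% in F3 control. *Sfrp4* had a log2 fold change of -0.95 and *Sfrp5* of 1.61, with adjusted p-values of 0.0310 and 0.0510 in edgeR, and *Sfrp5* rested on 1 to 15 counts per library.

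Among the ligands, 6 rose and 2 fell in F3 control. *Wnt2b*, a mesenchymal ligand, rose from 36.9, 31.1 and 28.4 CPM to 59.1, 63.6 and 52.6 CPM (log2 fold change 0.86, adjusted p = 0.00212 in edgeR), and *Wnt9a* from 7.30, 6.84 and 6.82 CPM to 14.8, 13.3 and 13.7 CPM (0.99, adjusted p = 0.00140 in edgeR). *Wnt2* rose from 1.84, 2.03 and 1.56 CPM to 4.37, 4.42 and 3.98 CPM, a log2 fold change of 1.22 (adjusted p = 0.00641 in edgeR). The other ligands that rose were *Wnt7b* (0.99), *Wnt5b* (0.39) and *Wnt10b* (1.61, from 2 to 6 counts per library in F1 control and 7 to 14 in F3 control). An opposite-strand gene overlaps exons of *Wnt7b*. *Wnt3* fell from 2.32, 3.46 and 3.04 CPM to 1.49, 1.62 and 1.27 CPM (-1.01, adjusted p = 0.00363 in edgeR) and *Wnt6* from 161, 172 and 131 CPM to 104, 128 and 86.7 CPM (-0.54, adjusted p = 0.0502 in edgeR). *Wnt4*, the other ovary-promoting signal beside *Rspo1*, was at 65.2, 57.3 and 60.1 CPM and 45.1, 52.6 and 53.9 CPM, with a log2 fold change of -0.27 (adjusted p = 0.115 in edgeR).

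Among the receptors, co-receptors, ubiquitin ligases and the β-catenin, Axin and TCF level, 8 genes fell and 1 rose. *Fzd9* fell from 4.41, 4.64 and 4.85 CPM to 2.42, 2.64 and 2.12 CPM (-0.95, adjusted p = 0.00365 in edgeR) and *Fzd4*, a receptor of endothelium, rose from 16.6 ± 1.21 to 26.8 ± 3.27 CPM (SD, n = 3, log2 fold change 0.69, adjusted p = 0.00682 in edgeR). The other 8 Frizzled genes were not called. *Lrp5* and *Lrp6* had log2 fold changes of -0.48 and -0.19, with adjusted p-values of 0.0132 and 0.0819 in edgeR. *Lgr4* fell from 149, 143.5 and 171 CPM to 109.4, 109.0 and 98.7 CPM (-0.55, adjusted p = 0.00107 in edgeR) and *Znrf3* from 21.5, 22.3 and 24.2 CPM to 10.9, 14.2 and 11.7 CPM (-0.88, adjusted p = 0.000760 in edgeR). The TCF/LEF factor *Lef1* (chromosome 3, 131110471 to 131224356) fell from 19.3, 22.4 and 21.7 CPM to 8.65, 6.95 and 7.12 CPM. This was the largest fall among the Wnt genes, with a log2 fold change of -1.48 (SE 0.21, adjusted p = 0.000487 in edgeR), and the F1 and F3 control libraries did not overlap. *Tcf7* fell from 76.5, 98.0 and 84.8 CPM to 55.2, 55.9 and 42.5 CPM (-0.75, adjusted p = 0.00748 in edgeR) and *Axin2* from 28.8, 28.3 and 27.7 CPM to 20.4, 23.3 and 19.4 CPM (-0.43, adjusted p = 0.0257 in edgeR). *Axin1* had an adjusted p of 0.103 in edgeR, and *Ctnnb1* was at 1008 to 1116 CPM and 1056 to 1103 CPM, with a log2 fold change of 0.01 (SE 0.08). Opposite-strand genes overlap exons of *Lef1* and *Axin2*.

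*Dkk1* was not called between the controls. Its level of 17.5, 17.5 and 8.45 CPM in F3 control against 10.3, 9.78 and 12 CPM in F1 control overlapped, at a log2 fold change of 0.44 (SE 0.28, adjusted p = 0.242 in edgeR). *Sfrp1*, *Lrp5*, *Lrp6*, *Lgr4* and *Znrf3* were called lower and *Rspo3* higher in F3 control than in F1 control. These same F3 control libraries are the ones F3 thia was set against, so that both comparisons share their values. In F3 thia the means were 347.7 CPM for *Sfrp1*, 80.0 CPM for *Lrp5*, 92.4 CPM for *Lrp6*, 122 CPM for *Lgr4*, 16.8 CPM for *Znrf3* and 11.3 CPM for *Rspo3*. In F3 control they were 269, 50.1, 76.1, 106, 12.3 and 16.5 CPM, and in F1 control 349.7, 69.7, 86.9, 154, 22.7 and 6.75 CPM, in the same order of genes. The F3 thia mean lay between both control means for *Sfrp1*, *Lgr4*, *Znrf3* and *Rspo3*, and above both for *Lrp5* and *Lrp6*.

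Of the 57 other pathway genes, chosen with earlier results known, 30 were called between the controls, where 42.3% of all genes were. There were 7 higher in F3 control, against 19.9% of all genes, and 23 lower, against 22.4%. Those with the lowest p were the polarity gene *Vangl2* (-0.91, SE 0.09), *Dvl2*, which relays the signal from Frizzled (-0.52, SE 0.08), and *Tnfrsf19* (1.25, SE 0.19), with adjusted p-values of 0.000113, 0.000725 and 0.000755 in edgeR. Of the 23 calls among the Wnt genes, 17 were kept in all 20 alternative fits. The others were lost when 1 library was left out, with adjusted p-values in edgeR of up to 0.194 for *Lrp6*, 0.192 for *Wnt10b*, 0.179 for *Wnt6*, 0.154 for *Wnt5b*, 0.136 for *Sfrp5* and 0.122 for *Sfrp4*. *Lrp6* was also lost with upper quartile scaling, at an adjusted p of 0.373 in edgeR. The median log2 fold change was -0.15 over these 57 genes, -0.09 over the 50 Wnt genes and -0.02 over all genes.

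**Figure D4:**
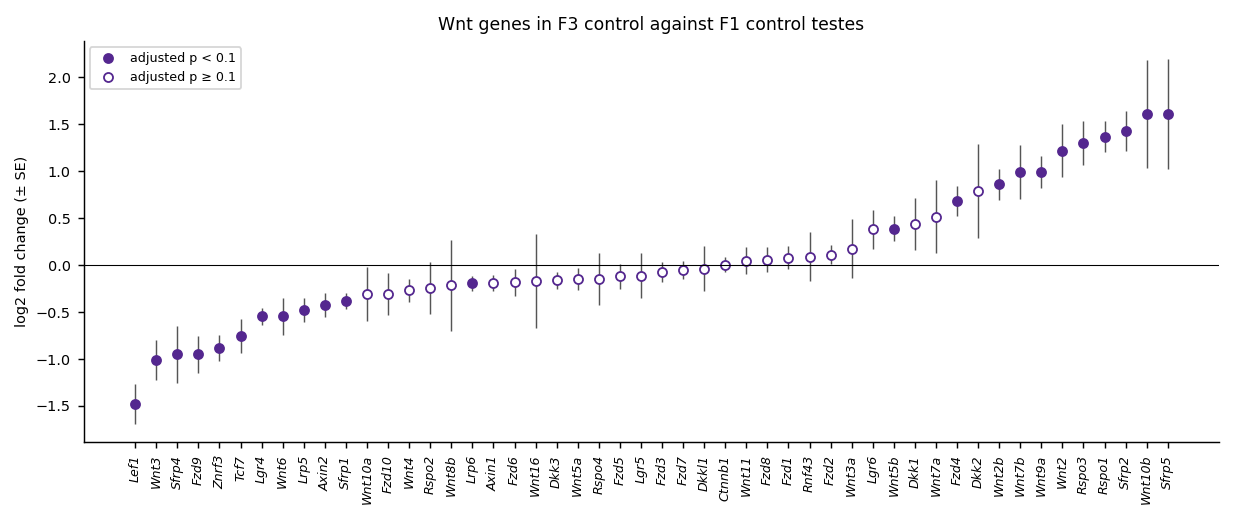
Log2 fold change with its SE of the 50 Wnt genes tested in F3 control against F1 control, in order of size, with filled symbols for an adjusted p under 0.1. *Lef1* lies lowest at -1.48, and *Rspo1*, *Sfrp2*, *Rspo3* and *Wnt2* are among the highest filled symbols, at 1.22 to 1.43.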

How the data were processed

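RNA was sequenced in 12 libraries of embryonic testis with a stranded kit. Reads were aligned by the authors to mm10 (HISAT2 2.1.0), and assigned to refGene genes with featureCounts. What they deposited were unnormalized counts, one value for each of 35976 symbols. Whether reads or pairs were counted, and whether strand was used, is not given in the sources used here. The members and gene lists were chosen with earlier results of these data known.

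Low counts were filtered by filterByExpr (edgeR) with its minimum count set to 10, and every gene that passed was fitted. Counts were compared with the quasi-likelihood test of edgeR 4.0.16 in R 4.3.3, with TMM scaling and Benjamini-Hochberg adjustment over all genes tested, within each generation (FDR 0.15 in F1 and 0.1 in F3, as in the study) and in one fit of the 12 libraries for the difference of the effects and for the controls (FDR 0.1). Each SE was computed from the F statistic. DESeq2 1.42.0 was the main alternative. The others were DESeq2 size factors, upper quartile scaling, other filters, other FDR thresholds, bias-adjusted deviances, log2 CPM at a prior count of 2 or 0.5, a replicate block and leaving out each library. CPM per kb used the exon length of GENCODE M21, which gave coordinates and length for all 54 genes. The steps were tested on simulated data.

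Replicates are separate pools of 3 embryos, and every pair of replicates differed by more than sampling noise (chi-square over its degrees of freedom of 17.3 to 101). Named are genes with an unadjusted p under 0.05 in any comparison, the 3 with the highest level per kb in each class, *Dkk1*, *Wnt5a*, *Sfrp1* and *Rspo3*, genes that failed the low-count filter in every comparison, and up to 3 other pathway genes per comparison. Genes listed only because their groups did not overlap were chosen after their values were seen. Python 3.11.15 was used for tables, and figures were drawn in matplotlib 3.10.9.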

Additional observations from a re-analysis of the deposited data

How the results depend on the processing

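In F3 thia against F3 control, the count of Wnt genes called was 0 in edgeR at an FDR of 0.1, 5 at an FDR of 0.15, 6 with the Wald test of DESeq2, 1 with upper quartile scaling (*Lrp5*), 3 without the low-count filter and 5 with all 12 libraries in one fit. Over all genes the counts in the same order were 0, 1826, 2262, 520, 569 and 1936, of 15218 to 30715 genes tested. When each library was left out in turn, the count of Wnt genes was 0 to 5. The 5 came without F3 thia replicate 2, where 1294 genes were called in all, against 0 to 2 genes without any other F3 library. For the difference of the effects the count of Wnt genes was 4 with DESeq2, where 638 genes were called in all. It was 0 in all other settings and whichever library was left out, where 0 to 4 genes were called in all. In F1 the count of Wnt genes was 0 in every setting tried, where 0 to 243 genes were called in all. Between the controls the count of Wnt genes was 23, and 17 to 25 when a library was left out. Over all genes it was 8300, and 6243 to 8704 when a library was left out. The cause of these changes was not tested. The log2 fold change of *Wnt5a* in F3 was -0.00756 with upper quartile scaling and -0.10 to 0.085 when a library was left out, and that of *Sfrp1* in F1 was -0.0354 to 0.0801 in the same way. The genes with an unadjusted p under 0.05 kept the sign of their log2 fold change in all alternatives run, in each comparison. Among the others, at least 1 alternative changed the sign for 23 of the 48 Wnt genes tested in F1, 21 of 49 in F3, 16 of 50 for the difference of the effects and 14 of 50 between the controls, with log2 fold changes of at most 0.32 in size.

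With the replicate number as a replicate block, edgeR called 0 Wnt genes in F1, F3 and the difference of the effects and 21 between the controls. Over all genes it called 3, 0, 0 and 7386 in the same order. Whether the numbers pair the samples is not given in the sources used here. Libraries with the same number had correlations of -0.03 to 0.02 in F1 and of 0.228, -0.42 and -0.27 in F3. F3 control replicate 2 deviated more like F3 thia replicates 1 and 3 than like its own number. With 3 libraries in each group, these correlations cannot settle whether samples were paired. Depth limits the rarest genes, of which *Wnt1*, *Wnt8a*, *Wnt9b* and *Dkk4* were fitted only in DESeq2 and without the filter, and *Wnt9b* and *Dkk4* also when single libraries were left out.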
